A study of Caenorhabditis elegans with 2 samples.

Results

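Regions of the ELT-3 chromatin immunoprecipitation sequencing (ChIP-seq) map that lay at small structural RNA genes are described here. A region belonged to the set when its summit, the position of highest signal, lay within 200 bp of a gene annotated as tRNA, snRNA or snoRNA. Of the 12676 nuclear regions in the authors' pooled list, 320 met that rule. They comprised 194 regions at tRNA genes, 28 at snRNA genes and 99 at snoRNA genes, with 1 region near both a tRNA and an snRNA gene. Conversely, 203 of 612 nuclear tRNA genes, 24 of 129 snRNA genes and 92 of 346 snoRNA genes had at least 1 region. The rule used the position of the summit and the annotation, and no signal value.

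The series held 1 group of 2 biological replicates. Chromatin came from whole mixed-stage embryos of pooled sex of the Caenorhabditis elegans strain OP75, which carries the unc-119(ed3) mutation and the integrated transgene wgIs75 encoding ELT-3 with a green fluorescent protein tag. The signal is therefore that of a tagged protein made from a transgene, averaged over all cells of the embryo. The labels name a possible control experiment, which was not analysed here, so the data hold no contrast and no test between conditions was made.

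ELT-3 is a GATA-type zinc finger factor that acts in the hypodermis, the epidermis of the worm. tRNA genes are transcribed by RNA polymerase III from promoter elements inside the gene, the A box and the B box, the second of which is bound by the factor TFIIIC. snRNA genes, which make the RNA parts of the spliceosome, are driven by an upstream element bound by the SNAPc complex. In nematodes this class includes the SL RNAs, which donate their leader sequence to pre-mRNAs in trans-splicing. SL1 is the general leader, SL2 is the leader of downstream genes in operons, and SmY RNAs accompany trans-splicing. snoRNAs guide the chemical modification of ribosomal and other RNAs in 2 families, C/D box and H/ACA box, and many are released from introns of protein-coding genes.

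The tRNA genes below were among the 8 with the highest-scoring regions, though not the first 4 in order, and all lie on the X chromosome. Sequences of tRNA genes are shown because the promoter elements lie inside the gene. Sequences are from the RefSeq WBcel235 assembly, the same build as ce11, and run 5′ to 3′ on the gene's strand. Capitals mark the B box, searched as GTTC, any base, A, any pair of bases, C. C04A11.t1 (tRNA-Leu) lies on the plus strand at chrX:13665555-13665673. C06G1.t1 (tRNA-His) lies on the minus strand at chrX:16634830-16634901. R04D3.t2 (tRNA-Val) lies on the plus strand at chrX:13307034-13307106. F46G11.t2 (tRNA-Pro) lies on the minus strand at chrX:5801211-5801282.
C04A11.t1: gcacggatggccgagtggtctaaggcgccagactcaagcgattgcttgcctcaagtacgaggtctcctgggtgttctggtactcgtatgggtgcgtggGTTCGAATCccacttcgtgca
C06G1.t1: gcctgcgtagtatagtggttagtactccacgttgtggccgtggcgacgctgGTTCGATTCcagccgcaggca
R04D3.t2: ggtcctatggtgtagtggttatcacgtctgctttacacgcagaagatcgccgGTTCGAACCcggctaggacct
F46G11.t2: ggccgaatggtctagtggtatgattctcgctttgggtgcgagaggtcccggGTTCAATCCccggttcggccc

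Among snRNA genes, 3 SL2 RNA genes of equal length (110 bases) are shown because nearly identical genes differed in whether they had a region. Capitals mark bases that differ from sls-2.2. sls-2.2 (plus strand, chrII:5543598-5543707) and sls-2.1 (plus strand, chrII:5844865-5844974) had a region. sls-2.3 (minus strand, chrII:5544164-5544273) had none. sls-2.1 differs from sls-2.2 at 8 bases and sls-2.3 at 3 bases.
sls-2.2: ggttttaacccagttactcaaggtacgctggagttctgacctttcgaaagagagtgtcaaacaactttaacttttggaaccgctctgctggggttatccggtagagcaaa
sls-2.1: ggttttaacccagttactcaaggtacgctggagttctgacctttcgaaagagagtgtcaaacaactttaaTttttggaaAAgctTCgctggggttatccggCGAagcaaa
sls-2.3: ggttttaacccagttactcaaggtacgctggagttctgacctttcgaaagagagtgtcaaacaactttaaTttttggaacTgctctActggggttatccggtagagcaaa

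For snoRNA genes, the stretch of 100 bases before the gene and its first 20 bases is shown for the highest-scoring genes whose upstream sequence held the letters of the B box. These are printed because the same letters mark tRNA promoters, and the search was chosen after the data had been seen. Capitals mark the B box letters, which begin 11 bases before the 5′ end of T03F7.8 and of F32E10.10, and 12 bases before that of C41C4.11. The printed stretches are chrV:11314158-11314277 on the plus strand for T03F7.8, chrIV:7574022-7574141 on the plus strand for F32E10.10, and chrII:8107251-8107370 on the minus strand for C41C4.11. For C51F7.4 (plus strand, chrV:12303599-12303693) the gene itself is shown, because its first B box match lies inside it, from base 40. A later match in the same gene, gttcgaccc, is left in lower case. ZK994.7 (plus strand, chrV:8500579-8500645) carried the highest-scoring snoRNA region, and the capitals in its sequence mark a D box, CTGA.
T03F7.8 upstream: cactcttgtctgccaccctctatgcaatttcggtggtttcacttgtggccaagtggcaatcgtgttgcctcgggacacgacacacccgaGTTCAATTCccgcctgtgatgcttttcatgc
F32E10.10 upstream: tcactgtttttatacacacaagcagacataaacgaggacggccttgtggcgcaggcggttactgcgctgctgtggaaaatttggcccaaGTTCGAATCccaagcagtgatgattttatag
C41C4.11 upstream: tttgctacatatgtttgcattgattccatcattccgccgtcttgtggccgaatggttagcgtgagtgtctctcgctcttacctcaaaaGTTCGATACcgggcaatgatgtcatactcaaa
C51F7.4: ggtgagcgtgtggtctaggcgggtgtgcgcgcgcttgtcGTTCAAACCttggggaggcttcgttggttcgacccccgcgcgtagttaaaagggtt
ZK994.7: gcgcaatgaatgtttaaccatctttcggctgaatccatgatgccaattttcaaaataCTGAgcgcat

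tRNA genes had a region most often of the 3 classes, followed by snoRNA and snRNA genes. The intervals of tRNA and snoRNA genes overlapped, as did those of snoRNA and snRNA genes. The share was 33.2% for tRNA genes (exact 95% binomial interval 29.5 to 37.1, 203 of 612), 26.6% for snoRNA genes (22.01 to 31.6, 92 of 346) and 18.6% for snRNA genes (12.3 to 26.4, 24 of 129). These intervals cover counting error only, and neighbouring or identical genes are not independent. Noncoding RNA genes of the other biotypes had a summit within 200 bp in 8.11% of cases (1922 of 23702), from 23.2% of the much longer lincRNA genes through 3.74% of piRNA genes to 0 of 20 rRNA genes. Counted by summits within 200 bp of the 5′ end alone, so that gene length plays no part, the shares were 31.9% of tRNA, 25.4% of snoRNA and 18.6% of snRNA genes, against 10.5% of the 19973 protein-coding genes. By the same count miRNA genes reached 9.58% (25 of 261), genes annotated as ncRNA 12.8% (992 of 7764) and piRNA genes 3.57% (548 of 15363). With only the authors' reproducible regions (described below), the same count gave 6.94% of snoRNA, 5.43% of snRNA and 5.39% of tRNA genes. At protein-coding genes it was 0.706%. tRNA genes then no longer had the highest share. No rRNA gene had a region (0 of 20, interval up to 16.8%).

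**Figure D1:**
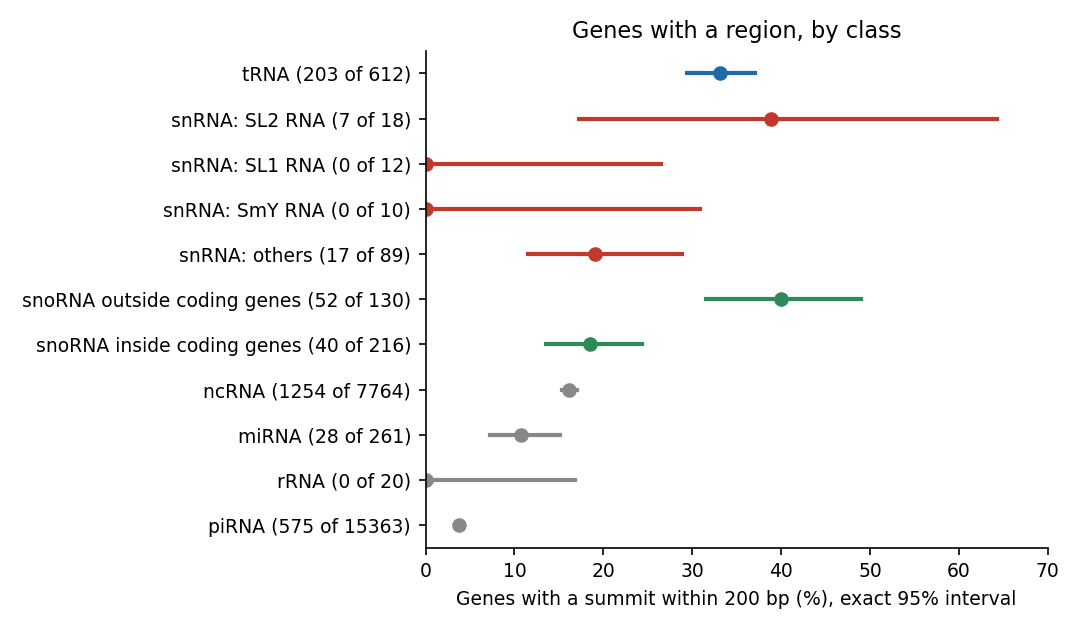
Percent of genes with a pooled-list summit within 200 bp, by class, with exact 95% binomial intervals as lines and counts beside each name. tRNA genes, SL2 RNA genes and snoRNA genes outside coding genes have the highest shares, 33.2%, 38.9% and 40.0%, and the SL1, SmY and rRNA rows have none. The SmY row leaves out smy-2, which has a region and which the annotation classes as a snoRNA gene.

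Summits were concentrated at the genes themselves. In bins of 50 bp, the summit density around tRNA 5′ ends was 9.97 per 100 genes in the 50 bp before the 5′ end and 7.84 in the 50 bp after it, against 1.59 and 1.11 at protein-coding genes. Around snoRNA genes it was 7.51 per 100 genes just before the 5′ end and 6.94 in the bin before that. Around snRNA genes it was 5.43 per 100 genes on each side of the 5′ end. The positions that follow were bounded by the rule, which kept only summits within 200 bp of a gene. They describe where in that span the summits lay and are no evidence of the concentration. The median summit lay 9.5 bp after the 5′ end of the nearest tRNA gene (quartiles -25.75 and 65.75) and 22.5 bp after that of snRNA genes. At snoRNA genes the median position was -29 bp, upstream of the gene. From the replicate lists alone the tRNA median was 26.5 bp for replicate 1 and -2.0 bp for replicate 2, so the side of the 5′ end on which it lay depended on the replicate. Of the tRNA regions, 85 had their summit upstream of the gene, 70 inside it and 39 downstream. Of the snRNA regions, 9 were upstream, 13 inside and 6 downstream. snoRNA regions leaned to the upstream side, with 65 of 99 upstream, 19 inside and 15 downstream.

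**Figure D2:**
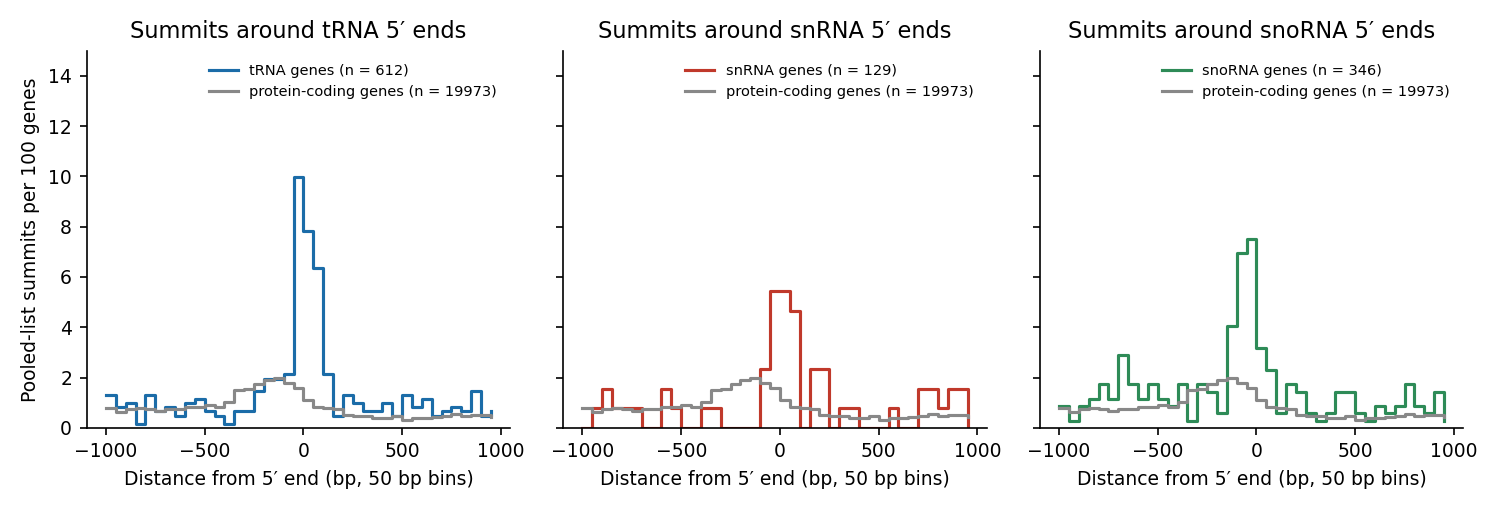
Pooled-list summits per 100 genes in 50 bp bins, by distance from the 5′ end along the gene's strand, for tRNA, snRNA and snoRNA genes (coloured) and protein-coding genes (grey, the same line in each panel). The coloured lines peak within 100 bp of the 5′ end, at 9.97, 5.43 and 7.51 summits per 100 genes, while the protein-coding line stays at or below 2.00.

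The signal score of these regions stood above that of the list as a whole. The score is the authors' value for each region, with no stated scale, and was compared only within a list. The median score in the pooled list was 23.77 at tRNA genes, 26.45 at snRNA genes and 28.64 at snoRNA genes, against 17.98 over all nuclear regions. In rank among the 12676 nuclear regions, the medians were 2863, 2128 and 1678, against 6338 for the whole list. The spread within each class was wide, with scores of 14.04 to 70.33 at tRNA genes, 14.08 to 147.8 at snRNA genes and 14.33 to 102.6 at snoRNA genes. At tRNA genes 71 of 194 regions scored under 20, as did 9 of 28 at snRNA genes and 31 of 99 at snoRNA genes.

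**Figure D3:**
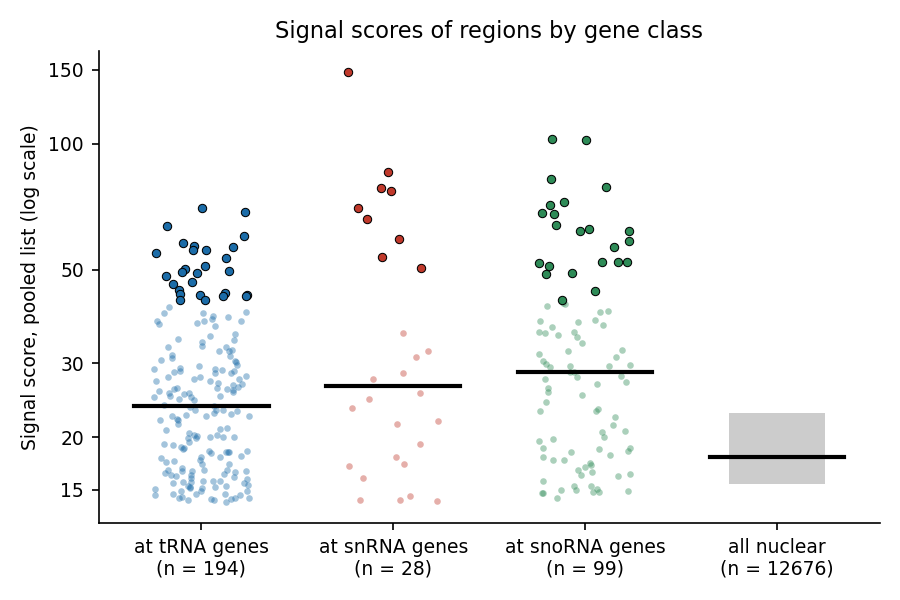
Pooled-list signal scores (log scale) of regions at tRNA, snRNA and snoRNA genes, 1 point per region with reproducible regions outlined, and the quartile range of all nuclear regions as a grey box. Black lines are medians (23.77, 26.45, 28.64 and 17.98), and the highest point is the region at the SL2 RNA gene sls-2.4, at 147.8.

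Reproducible regions, those the authors kept after filtering by the irreproducible discovery rate, made up 14.4% of tRNA regions (28 of 194, interval 9.81 to 20.2), 32.1% of snRNA regions (9 of 28, 15.9 to 52.4) and 23.2% of snoRNA regions (23 of 99, 15.3 to 32.8). Over all nuclear regions the share was 4.84% (614 of 12676). This share and the scores are one measurement in 2 forms, because the reproducible list held exactly the 637 highest-scoring regions of the pooled list, with a lowest score of 42.02. Presence in each replicate was read from summits within 100 bp in both replicate lists. That held for 58.2% of tRNA regions (113 of 194), 64.3% of snRNA regions (18 of 28) and 67.7% of snoRNA regions (67 of 99), against 36.6% of all nuclear regions. No summit within 100 bp in either replicate list was found for 7 of the 320 regions (2.19%), against 6.65% of all nuclear regions.

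Scores of regions found in both replicate lists rose together, but loosely. As a description over regions, which share libraries, Spearman's rho between replicate 1 and replicate 2 scores was 0.40 at tRNA genes (113 regions), 0.55 at snRNA genes (18) and 0.66 at snoRNA genes (67), and 0.47 over all nuclear regions (4641). With each replicate list shortened to the length of the pooled list, 183 tRNA genes had a region in replicate 1, 201 in replicate 2 and 126 in both, which is 68.9% of the first set and 62.7% of the second. For snoRNA genes the numbers were 82, 93 and 65, or 79.3% and 69.9%, and for snRNA genes 24, 25 and 15, or 62.5% and 60.0%. By summits within 200 bp of the 5′ end, protein-coding genes numbered 1998 in replicate 1, 1945 in replicate 2 and 728 in both, or 36.4% and 37.4%.

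**Figure D4:**
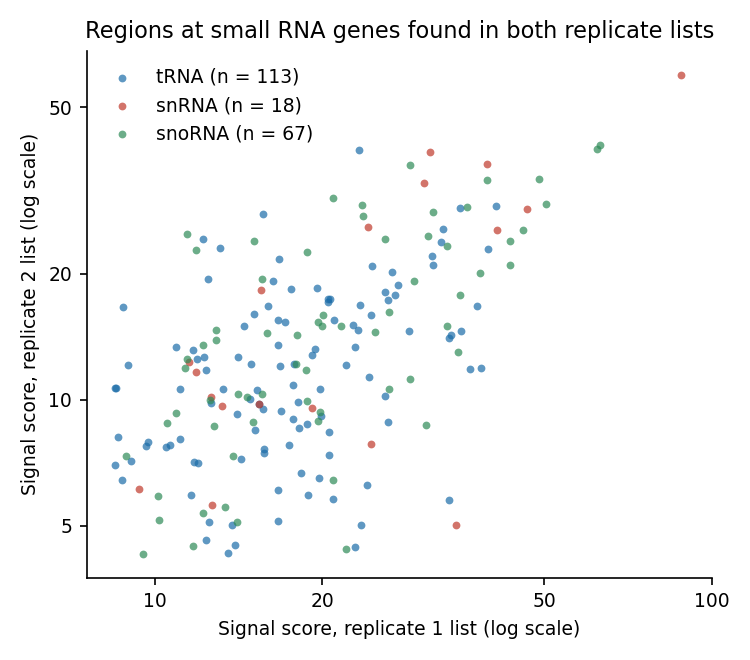
Signal scores of regions at tRNA, snRNA and snoRNA genes in the replicate 1 list (x axis) and the replicate 2 list (y axis), both on log scales that are not comparable with each other, 1 point per region found in both lists. Points spread widely at low scores, and the region at sls-2.4 (88.15 and 59.86) is highest on both axes.

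The highest-scoring region at a tRNA gene lay at C04A11.t1, the tRNA-Leu gene of the X chromosome shown above, in intergenic sequence nearest to the coding gene C04A11.5. Its score was 70.33 in the pooled list (rank 134), 40.99 in replicate 1 and 28.99 in replicate 2, with the summit 31 bp inside the gene. C37A2.t1, a tRNA-Cys gene in an intron of the cyclin gene cye-1, had a region of score 68.86, with 23.29 in replicate 1 and 39.52 in replicate 2. C06G1.t1 (tRNA-His) scored 63.6, with 35.39 and 28.78 in replicates 1 and 2. Each of these 3 regions was in both replicate lists, and the order of the first and second changed between replicates. sup-5, the tRNA-Trp gene known for its amber suppressor alleles, lies in an intron of fli-1 at chrIII:8678497-8678568, and its region scored 60.35, with 39.63 in replicate 1 and 22.91 in replicate 2. The summit at sup-5 was 19 bp upstream of the gene.

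Next in order came R04D3.t2 (tRNA-Val, 57.83), F46G11.t2 (tRNA-Pro, 56.91), C33G3.t2 (tRNA-Lys, 56.7) and C53C7.t2 (tRNA-Ser, 55.85), all on the X chromosome. The replicate 1 and 2 scores were 32.62 and 23.89 at R04D3.t2, 37.95 and 16.81 at C33G3.t2, and 31.44 and 22.09 at C53C7.t2. F46G11.t2 had no match in replicate 1 and a score of 24.28 in replicate 2. A missing match means that no replicate 1 summit lay within 100 bp, and the replicate 1 signal there is not known. The 8 genes named carry tRNAs for 8 different amino acids, and 6 of them lie on the X chromosome. In the worm genome the X chromosome holds 276 of the 612 tRNA genes.

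The share of tRNA genes with a region was similar for most amino acids, within wide intervals. It ran from 15% for histidine (3 of 20, interval 3.21 to 37.9) to 45.7% for lysine (21 of 46, 30.9 to 61.0), and the interval of each of the 20 standard amino acids included the share over all tRNA genes, 33.2%. After lysine came phenylalanine with 6 of 14, proline with 17 of 42 and arginine with 17 of 44. After histidine came tryptophan with 3 of 12 and methionine with 5 of 20. Neighbours in that order did not differ beyond their intervals. The 1 selenocysteine tRNA gene had no region.

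**Figure D5:**
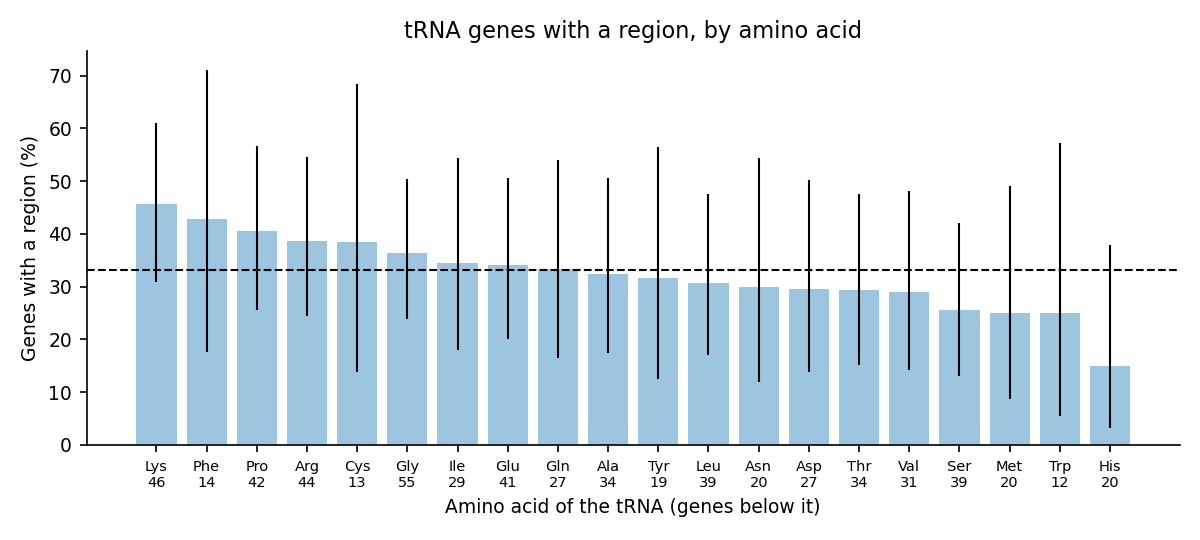
Percent of tRNA genes with a region for each amino acid, ordered from high to low, with exact 95% intervals as lines, the number of genes under each name and the share over all 612 genes (33.2%) as a dashed line. The bars run from 45.7% for lysine to 15% for histidine and every interval crosses the dashed line.

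tRNA genes come in families of identical sequence. The 469 genes with at least 1 identical copy formed 57 families, of which 12 had no region, 3 had a region at every copy and 42 were mixed. The largest family, 29 tRNA-Gly genes, had a region at 15, another of 25 tRNA-Lys genes at 12 and a family of 24 tRNA-Pro genes, which includes F46G11.t2, at 11. C12C8.t1, C12C8.t3 and C12C8.t4 belong to the tRNA-Gly family and had no region. Genes of the same sequence thus differed in whether a region was called. How reads that fit several copies were placed is not given in the sources used here, and its part in these counts was not tested.

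Genes with 10 or more identical copies had a region in 38.2% of cases (121 of 317, interval 32.8 to 43.8), genes with 2 to 9 copies in 32.9% (50 of 152, 25.5 to 41.0) and genes without an identical copy in 22.4% (32 of 143, 15.8 to 30.1). The same order held on the X chromosome, with 40.9%, 32.3% and 28.1%, and on the autosomes, with 35.6%, 33.3% and 18.6%. By chromosome the share was 36.2% on X (100 of 276) and 30.7% on the autosomes together (103 of 336), with overlapping intervals of 30.6 to 42.2 and 25.8 to 35.9. Counting only reproducible regions, 23 of the 276 genes on X and 11 of the 336 on the autosomes had one. Chromosome III stood highest with 45.3% (29 of 64) and chromosome V lowest with 23.1% (18 of 78). Outside coding genes the share was 34.5% (111 of 322) and inside them 31.7% (92 of 290), with overlapping intervals. The tRNA genes without a match to the A box letters in their first 30 bases (T and G 1 base apart, then A after any 3 bases and G after any 3 more) had no region (0 of 16, interval up to 20.6%), against 34.1% of those with one (203 of 596).

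At snRNA genes the highest score belonged to an SL2 RNA gene. sls-2.4, at chrI:4172206-4172315 between coding genes and nearest to egg-5, had a region of score 147.8, rank 2 among all nuclear regions. Its score was 88.15 in replicate 1 (rank 26) and 59.86 in replicate 2 (rank 19). The summit lay 17 bp upstream of the gene. A second region 187 bp past the 5′ end of sls-2.4 scored 59.38, with 41.22 in replicate 1 and 25.5 in replicate 2. Both replicates placed the gene near the top of their lists.

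The region at sls-2.2 scored 77.01 (46.55 in replicate 1 and 28.64 in replicate 2), and that at sls-2.8 scored 66.01 (30.41 and 32.97). The region at sls-2.1 scored 70.34, with 34.69 in replicate 1 but 5.018 in replicate 2, where it ranked 19550 of 26381. The match was the nearest replicate 2 summit within 100 bp, whatever its score, so a higher-scoring summit further off would be missed. Whether the replicates differ at sls-2.1 was not tested. Regions of lower score lay at sls-2.9 (27.49), sls-2.13 (21.84) and sls-2.18 (14.46). In all, 7 of 18 SL2 RNA genes had a region (38.9%, interval 17.3 to 64.3) and 4 of these 7 had a reproducible one. The other 11, sls-2.3 among them, had none, although 456 bases separate sls-2.3 from sls-2.2 and the genes differ at 3 bases.

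SL1 RNA genes had no region (0 of 12, interval up to 26.5%), and neither did the 10 genes classed here as SmY RNA (interval up to 30.8%). All 12 SL1 RNA genes lie between bases 17118154 and 17132107 of chromosome V, so they are neighbours and not independent. The interval for SL1 overlaps that for SL2, and all 18 SL2 RNA genes differ in sequence whereas 10 of the 12 SL1 RNA genes are identical. smy-1 was close to the limit, with a summit at 228 bp and a score of 49.01. That same region belongs to smy-2, which the annotation classes as a snoRNA gene, and its scores were 29.27 in replicate 1 and 19.29 in replicate 2.

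The other snRNA genes had a region in 17 of 89 cases (19.1%, interval 11.5 to 28.8). sup-6, in an intron of F58G1.7, scored 78.46 (31.2 in replicate 1 and 39.12 in replicate 2) with the summit 7 bp inside the gene. sup-39 scored 35.38 (15.52 and 18.36), and F38E11.10 scored 50.47 (24.18 and 25.89). The region at sup-39 was also counted for mir-1831, a 22-base entry inside sup-39 that the annotation classes as snRNA. Both are among the 17.

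snoRNA genes outside protein-coding genes had a region more often than those inside them. The share was 40.0% outside (52 of 130, interval 31.5 to 48.9) and 18.5% inside a protein-coding gene (40 of 216, 13.6 to 24.3), and these intervals did not overlap. Of the snoRNA genes inside a coding gene, 32 of 183 on the host's strand and 8 of 33 on the opposite strand had a region. On the X chromosome 4 of 33 snoRNA genes had one, against 88 of 313 on the autosomes, and on chromosome III 7 of 54. No snoRNA gene had an identical copy.

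The top snoRNA regions were seen in both replicates. ZK994.7, in an intron of the peroxidasin gene pxn-1, scored 102.6 in the pooled list, 62.33 in replicate 1 and 39.8 in replicate 2. T03F7.8, on the opposite strand in an intron of cutl-18, scored 102.2, with 63.09 and 40.76. The order of these 2 regions differed between the pooled list and the replicate lists, so they cannot be ranked against each other. F32E10.10 (82.18, with 48.93 and 33.71) and H09I01.2 (72.75, with 39.45 and 33.63) lie between coding genes, nearest to cec-4 and K07H8.7. C51F7.4, in an intron of frm-7, scored 78.84 (50.39 and 29.32).

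The remaining genes of the highest 8 were also found in both replicates. ZK265.10 scored 71.43 (45.89 in replicate 1 and 25.43 in replicate 2), C41C4.11 scored 68.5 (43.45 and 23.98) and T19B4.8 scored 68.04 (43.4 and 21.0). Their summits lay upstream of the 5′ end, at positions -82, -30 and -93 bp, whereas the summit at C51F7.4 lay 29 bp inside it. The region at C51F7.4 was also counted for C51F7.3, a snoRNA gene 15 bp away on the same strand (chrV:12303708-12303783). The summit of that region lies upstream of C51F7.3, which matched the C box and D box letters described below. snoRNA genes without a region include B0041.9, in the ribosomal protein gene rpl-4, B0213.18 in cyp-34A8 and B0228.10 in cpna-2.

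Letters of the snoRNA boxes were compared between genes with and without a region. A C box match was TGATGA in the first 20 bases and a D box match CTGA in the last 20. Genes with both had a region in 8 of 14 cases (57.1%, interval 28.9 to 82.3), against 84 of 332 without (25.3%, 20.7 to 30.3). Genes with an ACA at the 3′ end, as in the H/ACA family, had one in 16 of 75 cases (21.3%), against 76 of 271 without (28.0%). The box search was strict and left 257 of 346 genes with neither match, so most genes were not placed in a family.

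The B box letters of tRNA promoters also occurred at part of the snoRNA regions. This search was chosen after the data had been seen and is a description. Within 100 bp of the summit, on either strand, the letters were present at 155 of 194 tRNA regions (79.9%), which follows from the choice of tRNA genes, at 23 of 99 snoRNA regions (23.2%, interval 15.3 to 32.8) and at 0 of 28 snRNA regions (up to 12.3%). Over all nuclear regions the share was 7.37% (934 of 12676). On the gene's own strand, from 100 bases upstream to the gene's end, 24 of 92 snoRNA genes with a region held the letters (26.1%, 17.5 to 36.3), against 28 of 254 without a region (11.02%, 7.45 to 15.5). In 22 of those 24 the match began upstream of the gene. Read the other way, 24 of 52 snoRNA genes with the letters had a region (46.2%, 32.2 to 60.5), against 68 of 294 without (23.1%, 18.4 to 28.4). The order was the same for snoRNA genes outside coding genes (12 of 21 with the letters, against 40 of 109) and inside them (12 of 31, against 28 of 185). The intervals overlapped outside coding genes (34.0 to 78.2, against 27.7 to 46.5) but not inside them (21.9 to 57.8, against 10.3 to 21.1). At tRNA genes the order was also the same, with 196 of 588 (33.3%) against 7 of 24 (29.2%) and overlapping intervals. At snRNA genes it was the reverse. There 0 of 13 with the letters had a region, against 24 of 116 without, again with overlapping intervals. T03F7.8, F32E10.10 and C41C4.11, printed above, are examples in which the letters lie between the summit and the 5′ end of the gene.

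The sequence recognised by GATA factors was found at a lower share of tRNA and snoRNA regions than of the list as a whole, while the interval for snRNA regions included the share of the whole list. Searched on both strands within 50 bp of the summit as GATAA or GATAG preceded by A or T, it was present at 12.4% of tRNA regions (24 of 194, interval 8.09 to 17.9), 10.7% of snRNA regions (3 of 28, 2.27 to 28.2) and 14.1% of snoRNA regions (14 of 99, 7.95 to 22.6). Over all nuclear regions 24.6% held it (3124 of 12676). Among reproducible regions the values were 3 of 28 at tRNA genes, 1 of 9 at snRNA genes and 1 of 23 at snoRNA genes, against 236 of 614 in the whole list (38.4%). R04D3.t2 was the only one of the 8 tRNA genes named above whose region held the sequence. Base composition within the same 50 bp of the summit moved with this result. The median GC content of that window was 47.5%, 42.6% and 49.5% at tRNA, snRNA and snoRNA genes, against 36.6% over all nuclear regions. Its part in the GATA counts was not tested. The absence of these letters from the window says nothing on whether ELT-3 was present.

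Other short sequences that an earlier look at these data had brought up did not mark these regions as a group. GAGAGA was present within 50 bp of the summit at 12.9% of tRNA, 14.3% of snRNA and 16.2% of snoRNA regions, against 13.1% over all nuclear regions. CGTCTC was present at 3.09%, 3.57% and 8.08%, against 6.65%, and ACGCAG at 8.25%, 3.57% and 6.06%, against 5.27%.

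Few of these regions doubled as promoter regions of coding genes. A protein-coding 5′ end lay within 200 bp of the summit at 6 of 194 tRNA regions, 1 of 28 snRNA regions and 4 of 99 snoRNA regions, against 16.1% of all nuclear regions. By annotation, 53.1% of tRNA, 64.3% of snRNA and 60.6% of snoRNA summits were intergenic, against 51.0% over all nuclear regions. Summits in introns made up 42.8%, 28.6% and 33.3%, against 28.3% over all nuclear regions.

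Genes for the proteins that transcribe or package these RNAs were also examined. Among 16 genes of the RNA polymerase III and SNAPc machinery, 3 had a summit within 200 bp of the 5′ end, against the 10.5% given above for all protein-coding genes. They were rpc-1, which encodes the largest polymerase III subunit (score 43.69, with 30.2 in replicate 1 and 9.677 in replicate 2), snpc-4, a SNAPc subunit (30.37, with 15.5 and 13.44), and snpc-3.4 (27.17, with 15.01 and 11.34). Of 12 genes for snoRNP and Sm core proteins, 1 had a region. It was fib-1, which encodes the C/D snoRNP methyltransferase fibrillarin, with a score of 43.93 (23.86 and 18.71) and the summit 64 bp upstream, at position -64. None of these 4 regions held the GATA sequence, against 24.6% of all nuclear regions, and 4 regions are too few to set apart from that share.

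At the distance limit, the tRNA region just inside it lay 195 bp from F38E9.t1 with a score of 14.53, and the nearest one outside lay 203 bp from C35E7.t1 with a score of 17.07. For snoRNA genes these were F58D5.11 at 198 bp (17.37) and R144.18 at 201 bp (18.02). For snRNA genes they were F38E11.10 at 107 bp (17.23) and smy-1 at 228 bp, given above. Between 151 and 200 bp lay 13 tRNA, 0 snRNA and 4 snoRNA regions, and between 201 and 250 bp 6, 1 and 8.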

How the data were processed

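Peak regions were deposited for each replicate and for both replicates pooled, and a further list holds those kept after filtering by the irreproducible discovery rate. The score of each region is the authors' deposited value. The deposited −log10 q-value was read but not used. How the authors aligned reads, called peaks, set thresholds and treated reads that fit several places is not given in the sources used here. Peak lists do not give read depth, which is unknown. The authors' ce11 lists were read against WBcel235 with Ensembl release 115 genes and RefSeq sequence and symbols, in Python 3.11.15 with numpy 2.4.6, pandas 2.3.3, scipy 1.17.1 and matplotlib 3.10.9. The pooled list held 12702 regions (12676 nuclear), the replicate lists 19168 and 26381, and the reproducible list 637 (614 nuclear). Pooled and reproducible regions were called on both replicates together, so the spread between replicates was read from the replicate lists, whose score scales differ.

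Distances run from the summit to the nearest base of a gene. For counts and shares of genes, every gene within 200 bp of a summit was counted, so 1 region could count for several genes. For summit positions and named genes, a region was given to its nearest gene of each biotype. 19 regions lay near 2 or more tRNA genes. Regions of 2 lists matched when their summits lay within 100 bp, and the nearest summit was taken whatever its score. Shares have exact (Clopper-Pearson) 95% intervals. The distance assignment was tested on planted positions. With 1 group and no contrast, no test was made. The members and lists were chosen with earlier results of these data known. Named for each biotype were the 8 genes with the highest-scoring region and the 3 genes without a region with the most identical copies, ties in alphabetical order; some snRNA genes that this rule names are not reported here. Of 17 listed polymerase III and SNAPc genes, 16 matched a symbol. Other distances, windows, list lengths and score limits, and each replicate list alone, were tried.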

Additional observations from a re-analysis of the deposited data

How the results depend on the processing

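Of 84 alternative values, 58 were counted as unchanged and 26 as moved. For shares and positions this was judged by the counting interval or spread of the value given. Numbers of regions have no such interval, and all their alternatives were counted as unchanged although some shifted widely. The 194 regions at tRNA genes became 138 with regions above the median score and 226 at 500 bp. The 99 regions at snoRNA genes became 76 and 143. The share of tRNA genes with a region was 28.6% at 100 bp, 39.9% at 500 bp, 37.8% with any base of the region within 200 bp, 23.9% with regions above the median score, and 38.5% with identical genes counted as 1. For snoRNA genes it was 37.0% at 500 bp, 33.0% with any base within 200 bp and 21.7% with regions above the median score. Matching in both replicate lists fell with narrower limits by construction, to 37.1% (tRNA), 35.7% (snRNA) and 46.5% (snoRNA) at 50 bp, and was 73.2% (tRNA) and 76.8% (snoRNA) at 200 bp and 46.4% (tRNA) with replicate lists shortened to the pooled length. GATA sequences within 100 bp were at 26.8% of tRNA and 31.3% of snoRNA regions, against 41.6% over all nuclear regions, and TGATAA alone at 3.61% and 5.05%, against 12.2% over all nuclear regions. The median summit position moved with the lists used: from the list of 1 replicate alone it was -2.0 to 26.5 bp at tRNA genes, 17.0 to 19 bp at snRNA genes and -39.5 to -32.0 bp at snoRNA genes. At 100 bp it was 17.0 bp (snRNA) and -19.0 bp (snoRNA), and with regions above the median score 12.0 bp (snRNA) and -38.5 bp (snoRNA). By construction, shares of genes with a region rise with distance and fall with fewer regions. GATA shares likewise rise with a wider window and fall when TGATAA alone is searched. With identical genes counted as 1, a family had a region if any copy had one, so that value is set partly by the rule. Where no construction is named, the cause was not tested. No paired analysis was possible because there is 1 group.

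With 28 snRNA regions and 129 snRNA genes, intervals are wide, and differences between snRNA classes were not tested. Read depth and control signal were not analysed here, so binding cannot be told apart from signal that a control would also show.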
